A study of Mus musculus with 16 samples.

Results

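Endothelial cells sorted from control lung were compared with endothelial cells sorted from control liver, gene by gene, in 3 bulk RNA-seq libraries a side. These 6 libraries, of the 16 in the series, were chosen by a rule on their labels that used no measured value. Earlier results of these data were known when the choice was made. The controls carried the genotype label Wild Type and came from mice under the study's tamoxifen protocol, 10 days after induction, as did the libraries labelled Erg and Fli1 double knockout, of which there were 3 from lung and 3 from liver. Cells were sorted from collagenase and dispase digests as live, CD45 negative, CD31 positive and labelled by an antibody to VE-cadherin given into the circulation, so only cells labelled from the circulation were taken. The Cre driver, strain, age of the animals and number of animals behind a library do not appear in the labels. Levels of Xist and of Y-linked genes placed 1 male library, replicate 2, and 2 female libraries in each group, so more than 1 animal was used per group. Nothing else in the labels says that replicates were separate animals. The p-values measure the spread between libraries within groups over all 16 libraries, which were fitted together, and not over the 6 controls alone.

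Endothelium takes a different form in each organ. Lung alveoli are wrapped by a dense mesh of thin capillaries with a continuous wall, made of carbonic anhydrase 4 positive aerocytes, which face the air, and of general capillary cells, which serve as their progenitors. Liver sinusoids are lined by endothelium with open pores and almost no basement membrane, which clears macromolecules from blood through scavenger and Fc receptors, supplies clotting factor VIII and sends Wnt and BMP signals to hepatocytes. Bulk libraries mix capillaries with arteries and veins, while antibody given into the circulation would leave most lymphatic endothelium unlabelled. Here fewer cells of a type and less RNA per cell cannot be told apart.

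The 6 libraries held 30931177 to 41449054 counted reads, with 22020 to 23959 genes detected. Log2 levels correlated at 0.979 to 0.986 between libraries of a group and at 0.838 to 0.856 between a lung and a liver library (Pearson, across genes). The first principal component of the 6 libraries held 86.9% of the variance and separated lung from liver. Mitochondrial transcripts made 1.02 to 1.09% of lung counts and 1.4 to 1.89% of liver counts, and the 50 most abundant genes took 13.6 to 14.2% and 17.1 to 18% of them. Of 52636 genes in the table, 19646 passed the filter on low counts.

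Of the 19646 genes tested, 4831 were higher in lung and 4407 were higher in liver at an adjusted p under 0.05 by edgeR's quasi-likelihood test. These are 24.6% and 22.4% of the genes tested, and 47% together, which is the background for every gene list given here. Of them, 4755 and 4316 also had every library of the higher group above every library of the other. Differences of at least 4-fold numbered 2677 higher in lung and 1521 higher in liver, and differences of at least 16-fold numbered 1303 and 708. The other 10408 genes did not pass, and 4872 of those had estimates within 1.2-fold. Values below are CPM, which are read counts relative to the library total after scaling for composition, in the order of replicates 1, 2 and 3, or means ± SD (n = 3 a group). For every gene called higher below, each library of the higher group lay above each library of the other. Log2 differences are lung minus liver, so that positive values mean higher in lung, and the median over all genes tested was 0.05. When only the 11518 genes with a mean of at least 5 CPM in either tissue were tested, 3257 were higher in lung and 3210 in liver. That is a larger share than the 47% over all genes tested, which include many at low levels.

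**Figure D1:**
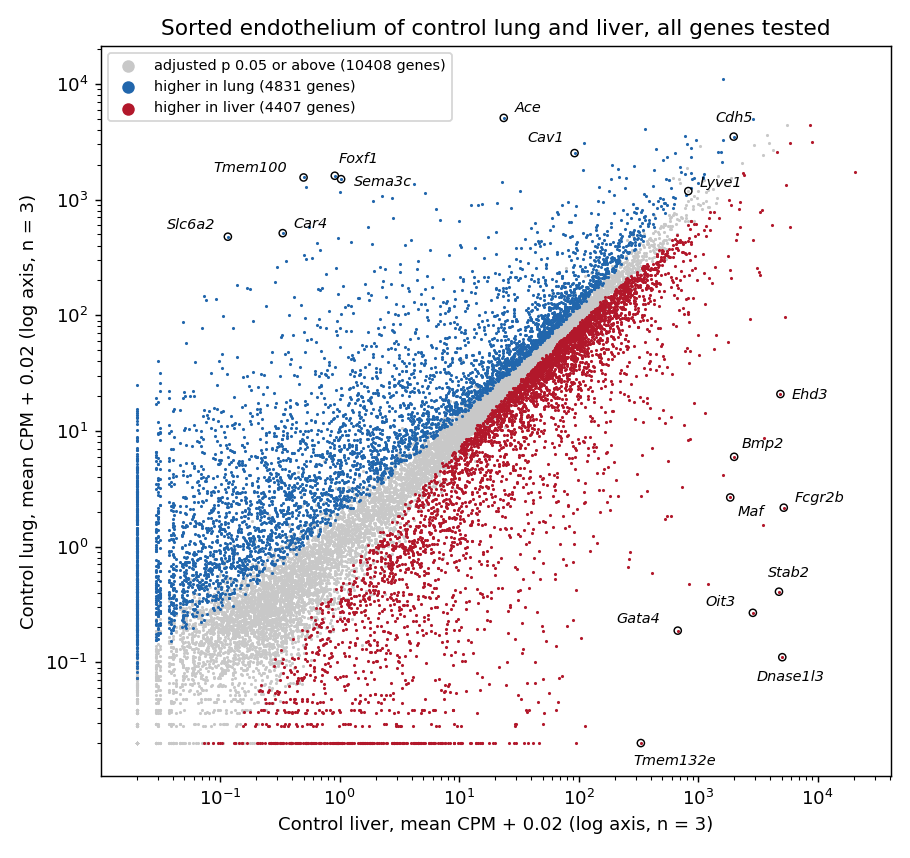
Mean CPM of each gene tested in control lung (vertical, log axis) against control liver (horizontal, log axis), with 0.02 added so that genes without counts can be drawn; colours mark the direction of genes that passed. The 4831 genes higher in lung and 4407 higher in liver leave the diagonal on both sides, with Tmem100, Foxf1 and Sema3c near the upper left and Stab2, Oit3 and Dnase1l3 near the lower right.

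The sort was checked on genes that most endothelium shares. Among the 39 pan-endothelial genes, 19 were higher in lung, 9 were higher in liver and 11 did not pass, with a median log2 difference of 0.41. Cdh5, which encodes the VE-cadherin used for sorting, stood at 3258, 3467 and 3777 CPM in lung and 2196, 1798 and 1950.2 CPM in liver, and Pecam1, which encodes CD31, at 2588, 2543 and 2646 CPM in lung and 1584, 1338 and 1443 CPM in liver. Both were present in all 6 libraries and were higher in lung, with log2 differences of 0.82 (SE 0.18, adjusted p = 0.00205) and 0.83 (SE 0.18, adjusted p = 0.00166). The angiopoietin receptor family member Tie1, at 1572, 1573 and 1629 CPM in lung and 1449.7, 1581 and 1376 CPM in liver, overlapped between the tissues, and its difference of 0.12 had a 95% interval of -0.22 to 0.45. The ETS factor genes Erg and Fli1, which the knockout label names, were lower in control lung than in control liver. Erg stood at 263, 259 and 276 CPM in lung and 361, 337 and 371 CPM in liver (log2 difference -0.42, SE 0.13, adjusted p = 0.0154). Fli1 stood at 76.6, 77.9 and 76.6 CPM in lung and 123, 113 and 114 CPM in liver (-0.60, SE 0.15, adjusted p = 0.00546), with no overlap in either gene. Without lung replicate 2 or liver replicate 3 the call for Erg was lost (adjusted p = 0.0538 and 0.0556). In the knockout-labelled libraries Erg stood at 224, 166 and 164 CPM in lung and 165, 136 and 131 CPM in liver, below every control library of the same tissue but well above 0. Fli1 stood there at 136, 98.2 and 138 CPM in lung and 144, 125 and 187 CPM in liver, above every control library of the same tissue. Its counts over the whole gene were thus not lower under that label. Counts by exon were not examined, so loss of a part of the gene was not tested.

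Within this shared set the tissues differed in the balance of members. The tight junction gene Cldn5 stood at 3605, 3072 and 2439 CPM in lung and 865, 782 and 793 CPM in liver, and Vwf, which encodes the platelet-binding von Willebrand factor, at 2764, 2569 and 2883 CPM in lung and 677, 186 and 471 CPM in liver. S1pr1, the sphingosine 1-phosphate receptor that tightens junctions, stood at 1696, 1628 and 1236 CPM in lung and 195, 175 and 187 CPM in liver. All 3 genes were higher in lung without overlap, with log2 differences of 1.90, 2.62 and 3.03 and adjusted p-values of 1.7e-06, 0.00101 and 6.07e-08. In the other direction, Mmrn2, a matrix protein bound by CD93, stood at 254, 174 and 207 CPM in lung and 1390.5, 1129 and 1167 CPM in liver (-2.54, adjusted p = 3.69e-08). Robo4, of the Roundabout family of guidance receptors, stood at 482 ± 10.0 CPM in lung and 1165 ± 77.7 CPM in liver (-1.27, adjusted p = 0.00101).

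Transcripts of other cell types also moved with tissue. Hepatocyte genes summed to 86.2, 68.9 and 97.6 CPM in the lung and 1265, 2244 and 4409.7 CPM, and 34 of the 35 tested were higher in liver, including albumin (Alb, 0.702, 0.637 and 0.0279 CPM in lung and 584, 1055 and 1986 CPM in liver). The liver libraries differed from each other 3.49-fold in this sum, replicate 3 being the highest. Genes of alveolar and airway epithelium summed to 3117, 3549 and 4541 CPM in the lung and 163, 160.3 and 175 CPM, and all 30 were higher in lung, including surfactant protein C (Sftpc, 993, 1183 and 1050.1 CPM in lung and 2.98, 3.51 and 0.213 CPM in liver) and the club cell gene Scgb1a1 (265, 182 and 1289 CPM in lung and 1.42, 0.034 and 0.152 CPM in liver). Genes of Kupffer cells and macrophages summed to 764, 839 and 764 CPM in the lung and 4535, 4427 and 5281 CPM, but most of that sum in liver was Mrc1 (8.63 ± 3.49 CPM in lung and 3554 ± 41.7 CPM in liver), which sinusoidal endothelium also expresses. The defining Kupffer genes Clec4f and Cd5l stood at 61.8, 48.2 and 177 CPM and 68.8, 73.4 and 195 CPM in the liver libraries, and at 0, 0 and 0 CPM and 0.0242, 0 and 0 CPM in the lung libraries. Fibroblast and stellate genes summed to 2157, 1619 and 1906 CPM in the lung and 233, 212 and 278 CPM, with 19 of 25 higher in lung. The pan-leukocyte gene Ptprc, which encodes the CD45 sorted against, did not pass at 7.19 ± 2.67 CPM in lung and 9.72 ± 3.34 CPM in liver. Pan-leukocyte and lymphocyte genes together summed to 60.6, 37.2 and 43.6 CPM in the lung and 87.0, 93.7 and 125.7 CPM in the liver. Of the 21 tested, 1 was higher in lung and 5 were higher in liver. Pericyte and smooth muscle genes summed to 158, 175 and 160.3 CPM in the lung and 209.7, 166 and 162 CPM, of which 15 of 18 were higher in lung. The 2 higher in liver, Abcc9 (7.16 ± 0.317 CPM in lung and 133 ± 12.1 CPM in liver) and Kcnj8 (2.22 ± 0.331 CPM in lung and 26.4 ± 7.52 CPM in liver), made up most of the liver sum. The part of these transcripts in the differences below was not tested beyond the values given beside them.

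**Figure D2:**
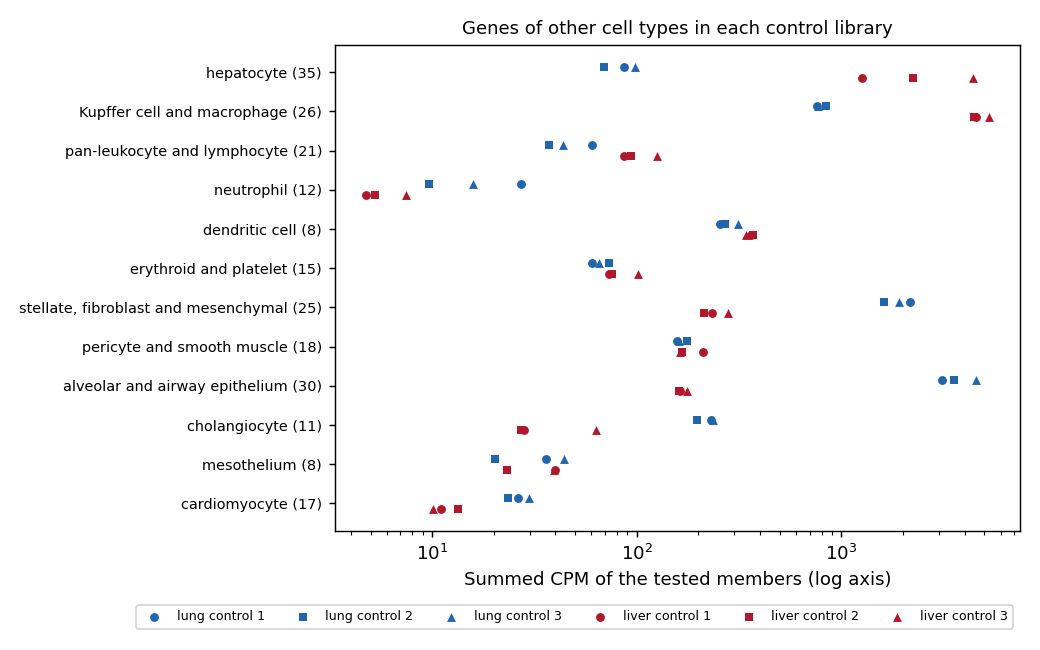
Summed CPM of marker genes of 12 other cell types (horizontal, log axis; number of tested genes in brackets) in each of the 6 control libraries, with the marker shape giving the replicate. Hepatocyte genes sit between 1265 and 4410 in liver and below 100 in lung, and epithelial genes between 3117 and 4541 in lung and at 175 or less in liver.

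Genes from the 12 largest differences in each direction, among named genes that averaged at least 10 CPM in the higher group, were next described. On the lung side the list was led by Slc6a2, the noradrenaline transporter, on chromosome 8 at 92960079 to 93001667 (GRCm38, plus strand), with 365, 599.7 and 467 CPM in lung and 0, 0.136 and 0.152 CPM in liver. It was followed by Ace3, a member of the angiotensin-converting enzyme family (chromosome 11, 105994675 to 106005443, plus strand), and Arhgap20, a GTPase-activating protein (chromosome 9, 51765337 to 51853856, plus strand). Neither had a count in any liver library: Ace3 stood at 14.2, 14.4 and 18 CPM in lung and was at least 517-fold higher there, and Arhgap20 stood at 13.5, 15.5 and 15.4 CPM and was at least 492-fold higher, taking 3 counts over the 3 liver libraries as the floor. Tmem100, a membrane protein downstream of BMP9 and ALK1 signalling, stood at 1364, 1581 and 1711 CPM in lung and 0.501, 0.511 and 0.425 CPM in liver (11.65, SE 0.59, adjusted p = 5.22e-09). The zinc finger gene Zfp641 stood at 133, 142 and 168 CPM in lung and 0, 0.0681 and 0.0911 CPM in liver (11.43, SE 0.42, adjusted p = 5.43e-10), and the estrogen receptor beta gene Esr2 at 11.3, 9.37 and 9.84 CPM in lung with no count in liver, at least 342-fold higher.

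The other lung genes of that list included genes known from ciliated epithelium. Lrrc23 encodes a protein of the ciliary radial spoke and Togaram2 a microtubule-binding protein of the TOG family, and neither had a count in liver. Lrrc23 stood at 17.5, 6.65 and 14.4 CPM and Togaram2 at 17.5, 8.62 and 16.8 CPM in lung. Foxj1, the master regulator of motile cilia and a member of the epithelial list, stood at 69.1, 35.7 and 68.2 CPM in the same libraries. These 3 genes were lowest in replicate 2, while the sum over the epithelial list was lowest in replicate 1 and Sftpc was highest in replicate 2. Spata18, at 12.3, 10.0 and 16.8 CPM, and Kndc1, at 13.2, 8.09 and 15 CPM, also had no count in liver and were lowest in replicate 2. Slc5a12, a monocarboxylate transporter, and Pcdhac2, a clustered protocadherin, were lowest in replicate 1 and highest in replicate 2. They stood at 6.44, 20.9 and 14.1 CPM and 13.7, 60.1 and 46.1 CPM. The epithelial sum was also lowest in replicate 1 but was highest in replicate 3. Car4 and Ednrb, capillary genes given below, had the same order over the lung libraries as Slc5a12 and Pcdhac2. The cell source of these transcripts was not tested. Slc5a12 had no count in liver (at least 449-fold higher in lung), and Pcdhac2 had 1, which gives a ratio of 3890 (95% counting interval 697 to 153000). Pcdhac2 shares its last exons with the other genes of its cluster, so its count is uncertain.

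On the liver side Tmem132e, a transmembrane protein gene on chromosome 11 (82388900 to 82446332, plus strand), had no count in lung and 335, 322 and 336 CPM in liver, at least 12500-fold higher. Dnase1l3, a secreted DNase that digests DNA of dying cells, stood at 0.0484, 0 and 0.223 CPM in lung and 5072, 4647 and 5442 CPM in liver (-15.74, SE 1.34, adjusted p = 4.79e-07). Stab2, the hyaluronan scavenger receptor of sinusoids, stood at 0.412, 0.499 and 0.251 CPM in lung and 4921, 4833 and 4470 CPM in liver (-13.56, SE 0.83, adjusted p = 2.22e-08). Oit3, a zona pellucida domain protein, stood at 0.242, 0.305 and 0.195 CPM in lung and 2950.5, 2685 and 2965 CPM in liver (-13.48, SE 0.53, adjusted p = 8.79e-10). These 4 genes varied by 1.04 to 1.17-fold over the liver libraries. Esrrb, an orphan nuclear receptor (chromosome 12, 86361117 to 86521628, plus strand), and Ush1g, known from hair cells of the ear, had no count in lung, with 66.2, 33.1 and 40.0 CPM and 41.5, 38.9 and 33.2 CPM in liver, at least 1810-fold and 1440-fold higher. Il13ra2, the decoy receptor for interleukin 13, stood at 47.4, 60.8 and 42.6 CPM in liver with 1 count in lung, a ratio of 5640 (95% counting interval 1010 to 223000).

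A further 4 liver genes are known as hepatocyte genes and were not among the markers excluded by the rule. Akr1c6 stood at 9.78, 10.7 and 26.3 CPM in liver, the plasma protein Hrg at 6.14, 9.29 and 31.1 CPM and Nat8f2 at 7.67, 9.33 and 28.2 CPM. The liver libraries ranked for these 3 genes as they did for albumin (Alb, 584, 1055 and 1986 CPM), replicate 3 being the highest, and the highest library was 2.69 to 5.06-fold above the lowest. Serpina1e, an antitrypsin paralog with near-identical neighbours, stood at 7.56, 30.3 and 5.04 CPM and was highest in the male library, replicate 2. None of these 4 had a count in lung.

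Sequence upstream of the transcript start is given for the first 3 genes each way that the RefSeq promoter table (GRCm38.p6) holds, since these are the genes that differ most. Of the 24 genes, 15 had an entry. Each run is the 250 bases before the annotated start, 5′ to 3′ on the gene's strand, with matches to any of the motifs searched in capitals.
Ace3 (chr11:105994399-105994648, plus strand, higher in lung): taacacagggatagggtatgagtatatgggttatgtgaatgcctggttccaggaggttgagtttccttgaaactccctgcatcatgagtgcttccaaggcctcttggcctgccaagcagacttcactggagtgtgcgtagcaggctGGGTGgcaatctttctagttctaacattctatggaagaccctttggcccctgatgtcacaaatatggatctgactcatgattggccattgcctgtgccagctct
Arhgap20 (chr9:51765101-51765350, plus strand, higher in lung): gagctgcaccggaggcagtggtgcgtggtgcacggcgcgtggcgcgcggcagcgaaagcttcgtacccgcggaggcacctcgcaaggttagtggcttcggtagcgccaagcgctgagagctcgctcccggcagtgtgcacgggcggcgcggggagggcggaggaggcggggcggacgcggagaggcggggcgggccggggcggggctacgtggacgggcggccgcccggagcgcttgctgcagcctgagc
Spata18 (chr5:73651130-73651379, plus strand, higher in lung): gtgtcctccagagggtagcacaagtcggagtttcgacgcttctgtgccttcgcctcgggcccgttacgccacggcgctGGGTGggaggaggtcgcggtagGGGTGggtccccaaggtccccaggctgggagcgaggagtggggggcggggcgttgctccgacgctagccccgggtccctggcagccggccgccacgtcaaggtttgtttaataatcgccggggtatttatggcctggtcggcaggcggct
Tmem132e (chr11:82388650-82388899, plus strand, higher in liver): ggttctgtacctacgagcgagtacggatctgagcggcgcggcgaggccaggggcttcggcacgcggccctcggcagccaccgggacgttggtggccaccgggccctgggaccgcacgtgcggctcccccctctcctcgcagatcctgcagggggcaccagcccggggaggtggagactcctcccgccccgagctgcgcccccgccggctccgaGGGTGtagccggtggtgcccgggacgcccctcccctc
Esrrb (chr12:86360867-86361116, plus strand, the first of 2 starts, higher in liver): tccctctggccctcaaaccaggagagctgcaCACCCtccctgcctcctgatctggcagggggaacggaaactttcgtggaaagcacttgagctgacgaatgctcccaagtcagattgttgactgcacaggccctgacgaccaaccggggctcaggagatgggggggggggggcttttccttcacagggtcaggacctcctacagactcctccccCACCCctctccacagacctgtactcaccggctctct
Stab2 (chr10:87007943-87008192, minus strand, higher in liver): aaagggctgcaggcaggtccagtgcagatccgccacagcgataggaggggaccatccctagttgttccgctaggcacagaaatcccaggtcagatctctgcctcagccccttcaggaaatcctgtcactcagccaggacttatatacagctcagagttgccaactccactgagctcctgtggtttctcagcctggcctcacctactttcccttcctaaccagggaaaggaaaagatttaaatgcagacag
The motifs searched, on both strands, were AGATAA for GATA factors, CCGGAAGT and GAGGAAGT for ETS factors, TGTTTAC for FOX factors, ACAAAG for SOX factors, CACCC for KLF factors and CAGGTG for E-box factors. Only CACCC or its complement was present, in 4 of the 6 runs, and the runs of Arhgap20 and Stab2 held none of these letters. CACCC was also in 57.5% of all 32851 windows of 300 bases in the table. Over windows of genes at least 4-fold higher in lung (2260 windows) and in liver (1340 windows), the GATA letters were in 7.83% and 11.6%, against 7.44% of windows of all genes tested. The ETS letters were in 4.25% and 5.97%, against 9.41%, and the E-box letters in 26.5% and 20.4%, against 19.1%. FOX letters were in 2.43% and 4.63% (2.95% of genes tested), SOX letters in 15.3% and 19% (14.8%), and KLF letters in 67.7% and 64% (63.6%). A match is a description of the sequence and not a bound site.

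Genes known from lung capillaries were higher in lung as a group. Of 43 tested, 35 were higher in lung, 3 were higher in liver and 5 did not pass, with a median log2 difference of 3.18. Among aerocyte genes, Car4, the carbonic anhydrase that converts bicarbonate to carbon dioxide at the capillary wall, stood at 321, 689.8 and 527 CPM in lung and 0.29, 0.409 and 0.243 CPM in liver (10.67, SE 0.76, adjusted p = 9.2e-08). Ednrb, the receptor that clears endothelin, stood at 149, 502 and 362 CPM in lung and 21.8, 11 and 27.9 CPM in liver (4.06, adjusted p = 6.44e-06). Apln, the apelin ligand, stood at 86.5, 122 and 80.8 CPM in lung and 9.25, 3.57 and 3.22 CPM in liver (4.16, adjusted p = 0.00133). The groups did not overlap for any of these, and Car4 and Ednrb were both lowest in lung replicate 1. Prx, at 833 ± 116 CPM in lung and 6.34 ± 0.867 CPM in liver, Emp2, a claudin-like membrane protein, at 975 ± 388 CPM in lung and 1.89 ± 0.632 CPM in liver, and Fibin, at 173 ± 98.3 CPM in lung and 0.149 ± 0.0572 CPM in liver, gave log2 differences of 7.04, 9.0 and 10.14. Emp2 is also known from alveolar epithelium, whose marker sum was higher in lung.

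General capillary genes of lung were mostly higher in lung. Of 11 tested, 7 were higher in lung, 1 was higher in liver and 3 did not pass, with a median log2 difference of 2.11. Aplnr, the apelin receptor, stood at 256, 221 and 240.2 CPM in lung and 2.98, 0.919 and 1.88 CPM in liver, and Lpl, the lipase that frees fatty acids from lipoproteins, at 301, 651 and 628 CPM in lung and 17.8, 11.6 and 31.5 CPM in liver. Both were higher in lung without overlap (6.93 and 4.70, adjusted p = 4.64e-07 and 0.000293). Gpihbp1, which holds that lipase at the capillary surface, went the other way at 554, 551 and 535 CPM in lung and 1086, 1103 and 1187 CPM in liver (-1.04, SE 0.41, adjusted p = 0.0488). That call was lost without any 1 of the 6 libraries, with adjusted p-values of 0.0843 to 0.115. Kit, the stem cell factor receptor, did not pass at 869, 818 and 869.7 CPM in lung and 662, 945 and 727 CPM in liver, with overlap and a 95% interval of -0.58 to 0.85 on the log2 scale. Plvap, which forms the diaphragms of caveolae and fenestrae, stood at 3010, 2066 and 2467 CPM in lung and 666, 598 and 648 CPM in liver (1.98, adjusted p = 0.000111).

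Further lung endothelial genes stood near 0 in liver. Sema3c, a secreted semaphorin, was at 1540.3, 1281 and 1682 CPM in lung and 0.659, 1.09 and 1.28 CPM in liver (10.55, SE 0.45, adjusted p = 1.29e-09). Scn7a, a sodium channel family member, stood at 1209, 1058 and 1244 CPM in lung and 0.975, 1.02 and 0.942 CPM in liver (10.22, adjusted p = 1.02e-09). Ace, the enzyme that makes angiotensin II and degrades bradykinin, was at 4115, 5258 and 5870.4 CPM in lung and 21.8, 19.3 and 29.6 CPM in liver (7.75, adjusted p = 2.3e-08). No library of one tissue reached the range of the other for these 3 genes. Hpgd, which inactivates prostaglandins, and Slco2a1, which takes them up, were both higher in lung, at 1965 ± 141 CPM in lung and 292 ± 64.7 CPM in liver and at 2342 ± 618 CPM in lung and 863 ± 32.4 CPM in liver (2.75 and 1.44, adjusted p = 0.00034 and 0.000677). Of the list, Igfbp7 (598 ± 201 CPM in lung and 4120 ± 510.4 CPM in liver), Sirpa (78.1 ± 25.1 CPM in lung and 479 ± 19.4 CPM in liver) and Gpihbp1 were the members higher in liver.

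Sinusoidal genes gave the converse. Of 47 tested, 4 were higher in lung, 38 were higher in liver and 5 did not pass, with a median log2 difference of -3.55. Among receptors and lectins, Fcgr2b, the inhibitory Fc receptor that clears immune complexes, stood at 2.88, 1.27 and 2.29 CPM in lung and 4949.5, 5197 and 5451 CPM in liver (-11.23, SE 0.72, adjusted p = 3.36e-08). Clec4g, a C-type lectin, stood at 2.01, 0.804 and 1.7 CPM in lung and 3539, 3371 and 3628 CPM in liver (-11.18, adjusted p = 8.88e-07). Mrc1, the mannose receptor, stood at 9.54, 4.77 and 11.6 CPM in lung and 3544, 3518 and 3599 CPM in liver (-8.69, adjusted p = 3.01e-07). Liver libraries varied little for these receptors and lay far above every lung library. Stab1, the paralog of Stab2, was measured in both tissues, at 505, 605 and 632 CPM in lung and 6248, 5789 and 5388 CPM in liver (-3.32, adjusted p = 3.37e-07). Flt4, the receptor of VEGF-C, at 235 ± 46.6 CPM in lung and 3239 ± 340.1 CPM in liver, and Gpr182, an atypical chemokine receptor, at 258 ± 48.5 CPM in lung and 3119 ± 156 CPM in liver, were also higher in liver (-3.78 and -3.59).

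Of the sinusoidal list, Lyve1, the hyaluronan receptor also used to mark lymphatics, did not pass. It stood at 976, 1429 and 1146 CPM in lung and 769, 688 and 1024 CPM in liver, with overlapping groups and a 95% interval of -0.84 to 1.88 around 0.52. Heart controls stood at 7.84 and 35 CPM for Lyve1 and at 63.3 and 48.9 CPM for Kit. Cd36, the fatty acid and thrombospondin receptor, was higher in lung, at 3194, 3190.3 and 3384 CPM in lung and 1036, 706 and 1117 CPM in liver (1.77, SE 0.30, adjusted p = 0.000271). Bmp6, Lmo2 and Tox were the other members higher in lung, Tox at a low level in both tissues (1.63 ± 0.238 CPM in lung and 0.579 ± 0.223 CPM in liver). The calls for Lmo2 and Tox were lost without each of 5 libraries (adjusted p up to 0.176 and 0.137).

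Secreted products of sinusoids were higher in liver in 18 of 19 genes tested. F8, clotting factor VIII, stood at 3.78, 3.74 and 4.8 CPM in lung and 1627, 1690.5 and 1513 CPM in liver (-8.62, SE 0.37, adjusted p = 1.36e-09). Selenop, the selenium carrier, stood at 1427, 1950.3 and 1851 CPM in lung and 18156, 20020 and 22896 CPM in liver (-3.55, adjusted p = 8.62e-07). Selenop is also made by hepatocytes. Its liver values had the same order over the libraries as the hepatocyte sum (1265, 2244 and 4410 CPM), and the part of hepatocyte RNA in its difference was not tested. Ctsl, a lysosomal protease, and Lgmn, the asparaginyl endopeptidase, stood at 211 ± 21 CPM in lung and 1898 ± 159 CPM in liver and 86.8 ± 15.2 CPM in lung and 834 ± 67.2 CPM in liver (-3.17 and -3.26). Of the exonic bases of Ctsl, 26.8% lie opposite exons of another gene. Bmp6 stood at 965 ± 132 CPM in lung and 391 ± 42.8 CPM in liver (1.3, adjusted p = 0.000142), while Bmp2, the other ligand that induces hepcidin in hepatocytes, stood at 5.47, 5.85 and 6.53 CPM in lung and 2011, 1886 and 2101 CPM in liver (-8.39, SE 0.25, adjusted p = 1.15e-10).

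**Figure D3:**
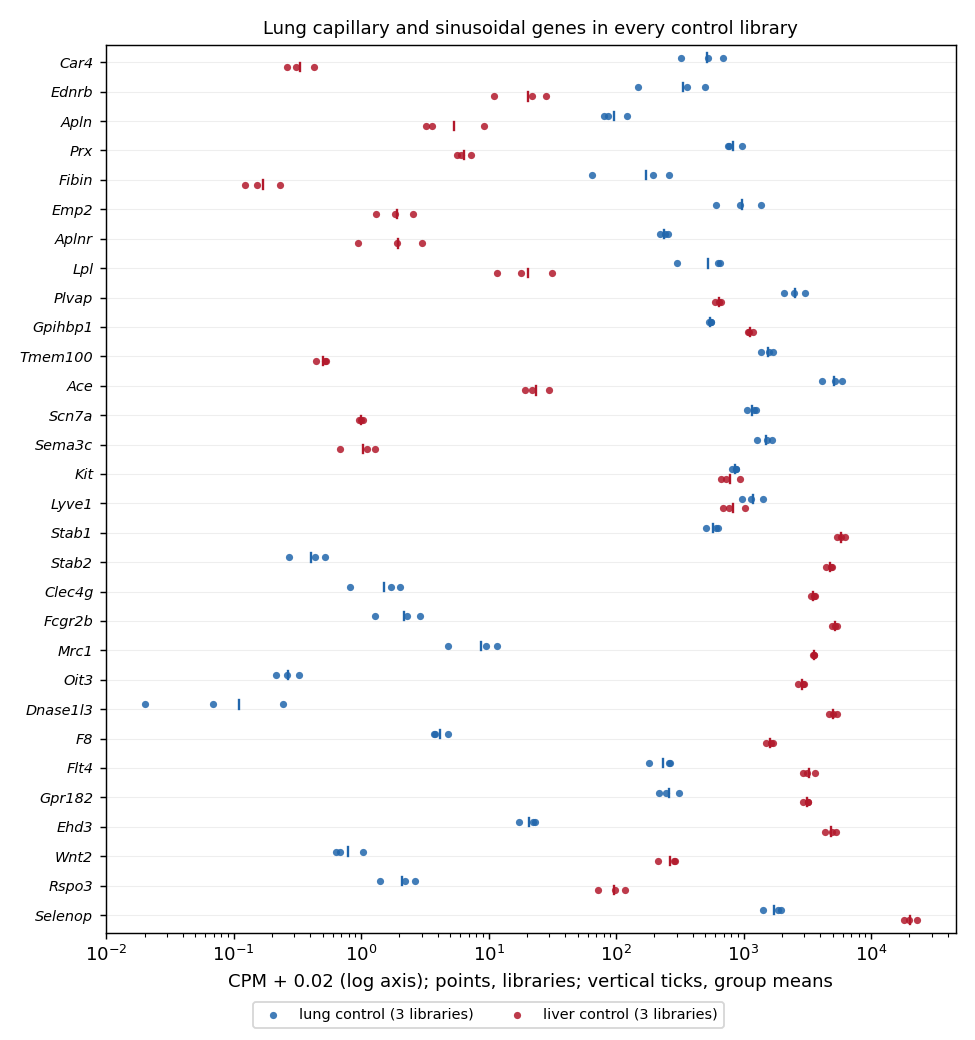
CPM of 30 lung capillary and sinusoidal genes (horizontal, log axis, 0.02 added) in each of the 3 control lung and 3 control liver libraries; points are libraries and vertical ticks are group means. Lung points lie to the right from Car4 to Sema3c except at Gpihbp1, the groups overlap at Kit and Lyve1, and liver points lie to the right from Stab1 down.

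Genes for transcription factors linked to organ identity were split between the tissues. Of 84 tested, 34 were higher in lung, 26 were higher in liver and 24 did not pass. Foxf1, a forkhead factor required for lung vessels, stood at 1664, 1795 and 1362 CPM in lung and 1.19, 0.817 and 0.668 CPM in liver (10.80, SE 0.41, adjusted p = 6.33e-10). The T-box gene Tbx3 stood at 381, 705 and 659.8 CPM in lung and 1.32, 1.06 and 2.79 CPM in liver (8.40, SE 0.89, adjusted p = 3.75e-06). Its relative Tbx2 did not pass at 187, 509 and 383 CPM in lung and 224, 276 and 242 CPM in liver, with overlap and a 95% interval of -0.31 to 1.39. Gata4, the GATA factor that specifies sinusoidal endothelium, stood at 0.363, 0.0277 and 0.112 CPM in lung and 783, 644 and 597 CPM in liver (-11.88, SE 0.75, adjusted p = 2.96e-08). Maf stood at 2.35, 2.16 and 3.4 CPM in lung and 1940.2, 1844 and 1779 CPM in liver (-9.46, SE 0.41, adjusted p = 1.36e-09). Heart controls stood at 17.7 and 27.5 CPM for Gata4, between the 2 tissues, and at 3.28 and 5.02 CPM for Foxf1.

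GATA genes were called in both directions. Gata2, at 629, 916 and 1092 CPM in lung and 103, 91 and 92.4 CPM in liver, and Gata3, at 24.7, 29.6 and 38.9 CPM in lung and 0.158, 0 and 0.122 CPM in liver, were higher in lung (3.21 and 8.25, adjusted p = 7.24e-07 and 6.08e-08). Gata6, at 37.1 ± 10.3 CPM in lung and 2.82 ± 1.49 CPM in liver (3.71), was also higher in lung, while Gata4 was higher in liver. Sox11, at 93.3, 117 and 139.6 CPM in lung and 0.738, 1.19 and 1.37 CPM in liver, and Aff3, at 152 ± 56.1 CPM in lung and 0.955 ± 0.236 CPM in liver, were higher in lung (6.74 and 7.33, adjusted p = 8.33e-08 and 1.19e-08). On the liver side stood Tfec, of the MiT family that drives lysosomal genes, at 0.678, 0.332 and 0.502 CPM in lung and 64.6, 64.1 and 62.2 CPM in liver (-6.96, adjusted p = 1.75e-07). Nr2f2, the COUP-TFII factor of veins, stood at 29.7, 32.7 and 28.8 CPM in lung and 377, 369 and 358 CPM in liver, and Nr2f1, its paralog, at 2.91 ± 0.432 CPM in lung and 37.3 ± 3.28 CPM in liver (-3.60 and -3.68, adjusted p = 4.64e-08 and 6.83e-08). Irf8, at 11.2 ± 6.94 CPM in lung and 145 ± 55.2 CPM in liver, was higher in liver (-3.69) and is also a macrophage gene, beside Kupffer genes that were higher there. Hopx, at 121 ± 22.9 CPM in lung and 1.24 ± 0.767 CPM in liver, was higher in lung and belongs to the epithelial list too, and 27.2% of its exonic bases lie opposite exons of another gene. Klf2 and Klf4, factors induced by blood flow, were higher in lung, at 2798 ± 402 CPM in lung and 865 ± 383 CPM in liver and 1972 ± 267 CPM in lung and 192 ± 102 CPM in liver (1.69 and 3.36). Both also respond to tissue dissociation, and 18 of 38 immediate early and dissociation genes were higher in lung.

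Hox genes record position along the body axis. Of 39 Hox genes in the table, 18 passed the filter, of which 4 were higher in lung and 7 in liver. The 4 higher in lung, Hoxa3, Hoxa5, Hoxa6 and Hoxa7, lie in the A cluster on chromosome 6. Hoxa5, needed for lung development, stood at 158, 171 and 171 CPM in lung and 64.5, 34 and 51.1 CPM in liver (1.74, SE 0.33, adjusted p = 0.000697). Hoxa7 stood at 6.93, 8.04 and 8.2 CPM in lung and 0.105, 0.0681 and 0.122 CPM in liver (6.23, adjusted p = 0.000109). Of the 7 higher in liver, 6 lie in the B cluster on chromosome 11, namely Hoxb2, Hoxb3, Hoxb4, Hoxb6, Hoxb7 and Hoxb8. Hoxb7 stood at 0.581, 0.305 and 0.307 CPM in lung and 10.4, 8.85 and 8.08 CPM in liver (-4.50, SE 0.59, adjusted p = 2.73e-05). Hoxb6 stood at 1.14, 0.748 and 1.7 CPM in lung and 7.19, 7.86 and 7.99 CPM in liver (-2.68, adjusted p = 0.000626). Hoxb5, which lies between Hoxb4 and Hoxb6, did not pass at 24.7, 25.7 and 27.3 CPM in lung and 26.2, 28.4 and 33.8 CPM in liver, with a 95% interval of -0.60 to 0.23. The smaller differences of Hoxa3 (0.56) and Hoxb3 (-0.85) were lost without single libraries, Hoxa3 without lung replicate 1, 2 or 3 or liver replicate 2 or 3 and Hoxb3 without lung replicate 1 or 2 or liver replicate 3 (adjusted p up to 0.137 and 0.0898). Of the exonic bases of Hoxa3, Hoxa7, Hoxb2 and Hoxb3, 25.4%, 20.4%, 27.3% and 52.9% lie opposite exons of another gene, and the strand setting of the counting is not stated in the labels.

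**Figure D4:**
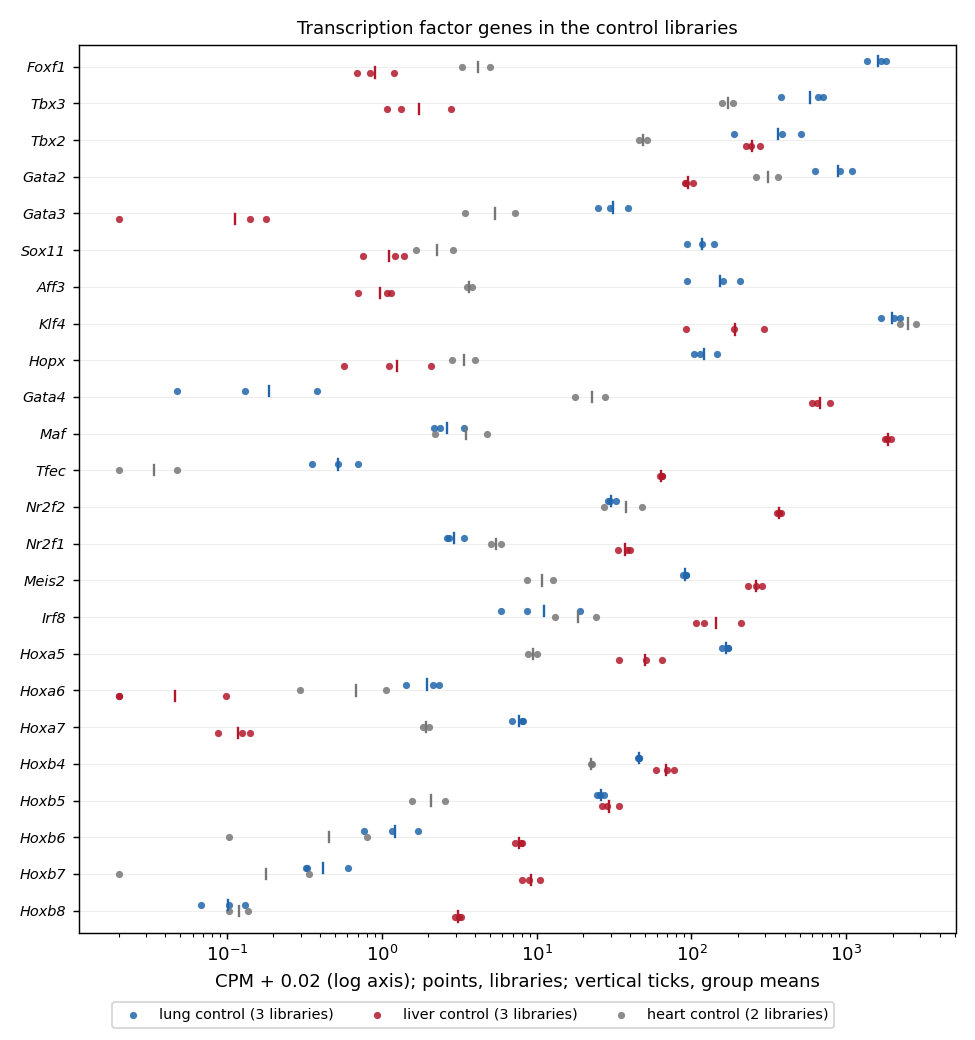
CPM of 24 transcription factor genes (horizontal, log axis, 0.02 added) in 3 control lung, 3 control liver and 2 control heart libraries; points are libraries and vertical ticks are group means. Lung and liver points separate for every gene shown except Tbx2 and Hoxb5, with Hoxa5, Hoxa6 and Hoxa7 to the right in lung and Hoxb6, Hoxb7 and Hoxb8 to the right in liver.

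Genes of uptake and degradation were higher in liver more often than in lung. Of 53 scavenger and endocytic genes, 13 were higher in lung, 26 were higher in liver and 14 did not pass. Of 56 lysosomal genes, 3 were higher in lung, 39 were higher in liver and 14 did not pass, with a median log2 difference of -0.91 beside 0.05 over all genes. Without liver replicate 1 or 2, 1 lysosomal gene was higher in lung. Msr1, the class A scavenger receptor, stood at 0.412, 0.554 and 0.753 CPM in lung and 441, 387 and 403 CPM in liver (-9.49, adjusted p = 1.37e-08). Fcgrt, the neonatal Fc receptor that returns IgG and albumin to blood, stood at 48.2, 51.9 and 52.5 CPM in lung and 1262, 1403 and 1442 CPM in liver (-4.75, adjusted p = 3.25e-08). Dab2, a clathrin adaptor, stood at 48.7 ± 2.86 CPM in lung and 779 ± 10.7 CPM in liver, and the sorting nexin Snx5 at 54.3 ± 3.75 CPM in lung and 488 ± 62.3 CPM in liver (-4.0 and -3.17). Among lysosomal genes, Lamp2, a membrane protein of the lysosome, stood at 173, 204 and 196 CPM in lung and 1301, 1240.3 and 1371 CPM in liver (-2.77, SE 0.14, adjusted p = 3.97e-09). Ctsb, cathepsin B, stood at 255, 231 and 255 CPM in lung and 1831, 1769 and 1979 CPM in liver (-2.91, adjusted p = 9.12e-09). The lysosomal mannosidase gene Man2b1 stood at 103 ± 11.2 CPM in lung and 758 ± 78.7 CPM in liver (-2.88). Npc2, the cholesterol carrier of lysosomes, did not pass at 195, 199 and 200.5 CPM in lung and 198, 219 and 229 CPM in liver, nor did the proton pump subunit gene Atp6v1a at 111 ± 7.66 CPM in lung and 118 ± 3.63 CPM in liver.

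Caveolar genes went the other way. Of 15 tested, 11 were higher in lung, 2 were higher in liver and 2 did not pass, with a median log2 difference of 1.98. Gpihbp1 and the water channel gene Aqp1, which was chosen after its values were seen, were the members higher in liver. Without any 1 of the 6 libraries, or with RLE or upper-quartile scaling, 1 was. Cav1, the main caveolar coat protein, stood at 2489, 2461 and 2617 CPM in lung and 84, 98.7 and 94.3 CPM in liver (4.77, SE 0.35, adjusted p = 1.17e-07). The coat partner gene Cavin1 stood at 1112, 1003 and 1171 CPM in lung and 223, 178 and 197 CPM in liver (2.46, adjusted p = 3.5e-08). The EHD ATPases, which shape membranes at caveolae and on endosomes, divided. Ehd2, which caps the neck of caveolae, stood at 615, 624 and 707 CPM in lung and 16.2, 4.19 and 9.72 CPM in liver (6.01, SE 0.54, adjusted p = 8.52e-07). Ehd3, an endosomal member, stood at 17.2, 23.1 and 22.2 CPM in lung and 5314, 4369 and 4941 CPM in liver (-7.87, SE 0.52, adjusted p = 4.46e-08). Ehd4 was higher in lung at 1792 ± 106 CPM in lung and 108 ± 9.62 CPM in liver (4.05). Heart controls stood at 2447 and 2738 CPM for Cav1, 1342 and 1569 CPM for Ehd2 and 17.8 and 23.9 CPM for Ehd3.

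Iron genes were mostly higher in liver. Of 27 iron and heme genes, 5 were higher in lung, 15 were higher in liver and 7 did not pass. Slc40a1, ferroportin, the exporter of cellular iron, stood at 4.48, 9.31 and 7.42 CPM in lung and 289.5, 404 and 539.9 CPM in liver (-5.86, adjusted p = 8.06e-07). Hmox1, which degrades heme, stood at 17.5, 14.8 and 15.3 CPM in lung and 88.4, 62.7 and 96.3 CPM in liver (-2.38, adjusted p = 9.31e-05). Kupffer cells express both genes. Slc40a1 spanned 289.5, 404 and 539.9 CPM over liver libraries in which Clec4f spanned 61.8, 48.2 and 177 CPM. Slc39a14, an importer of iron and zinc, was higher in lung at 48.5 ± 2.96 CPM in lung and 9.39 ± 2.03 CPM in liver (2.37). The ferritin heavy chain gene Fth1 did not pass at 454 ± 28.1 CPM in lung and 389.6 ± 44 CPM in liver.

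Junction genes were more often higher in lung. Of 40 tested, 20 were higher in lung, 8 were higher in liver and 12 did not pass. Ocln, occludin of tight junctions, stood at 68.7, 82.7 and 81.3 CPM in lung and 0.685, 0.477 and 1.06 CPM in liver (6.69, SE 0.72, adjusted p = 4.47e-06). It is also expressed by epithelium, whose marker sum spanned 1.46-fold over the lung libraries. Jup, plakoglobin, which links VE-cadherin to the cytoskeleton, stood at 1121, 1235 and 1423 CPM in lung and 232, 269 and 232 CPM in liver (2.37, adjusted p = 4.44e-07). Gja5, connexin 40 of arteries, stood at 35.7 ± 3.95 CPM in lung and 6.22 ± 2.7 CPM in liver (2.51). Nectin2, a cell adhesion receptor, was higher in liver at 17.4, 12.4 and 14.7 CPM in lung and 191, 187 and 189 CPM in liver (-3.67, adjusted p = 5.43e-10). Esam (831 ± 15.7 CPM in lung and 902 ± 73.4 CPM in liver) and Ctnnb1, which encodes beta-catenin (663 ± 96.1 CPM in lung and 693 ± 54.5 CPM in liver), did not pass.

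Matrix genes were more often higher in lung. Of 67 tested, 32 were higher in lung, 16 were higher in liver and 19 did not pass. Their summed CPM went the other way, at 9957 to 10678 in the lung libraries and 20230 to 22994 in the liver libraries. For laminins and linkers the sums were 2754 to 3213 in lung and 5318 to 6674 in liver. Laminins and their linkers numbered 11 higher in lung and 6 in liver, and elastic and other matrix genes 18 and 8. Hspg2, perlecan of basement membranes, stood at 89.1, 78.8 and 113 CPM in lung and 3297, 2546 and 2343 CPM in liver (-4.87, SE 0.27, adjusted p = 1.02e-08). The laminin chain gene Lama4 stood at 42.2, 35.8 and 37.7 CPM in lung and 468, 331 and 354 CPM in liver (-3.32, adjusted p = 2.87e-09). Both were higher in liver without overlap, as was Emilin1, of elastic fibres, at 124 ± 5.48 CPM in lung and 1141 ± 135 CPM in liver (-3.20). Mfap2, of microfibrils, and Egflam, pikachurin, were higher in lung, at 180.4 ± 41.4 CPM in lung and 1.06 ± 0.224 CPM in liver and 72.7 ± 29.5 CPM in lung and 0.909 ± 0.361 CPM in liver (7.42 and 6.33). The collagen IV genes Col4a1 and Col4a2 did not pass, at 1535 ± 145 CPM in lung and 1899 ± 287 CPM in liver and 941 ± 62.3 CPM in lung and 1093 ± 110.1 CPM in liver, with 95% intervals of -0.89 to 0.28 and -0.76 to 0.32. Fibroblast genes higher in lung included Col1a1 (159.9, 69.3 and 98.2 CPM) and Dcn (125, 84.8 and 137 CPM), against 7.25, 7.15 and 9.54 CPM and 8.62, 9.91 and 16.2 CPM in liver, and their part in the matrix counts was not tested.

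Integrin genes were more often higher in lung. Of 21 tested, 11 were higher in lung, 5 were higher in liver and 5 did not pass, and 7 were higher in lung without lung replicate 3, liver replicate 1 or liver replicate 2, or when only the 16 with at least 5 CPM were tested. The laminin and collagen receptor chains Itga3 (364, 589.9 and 479.7 CPM in lung and 18.4, 16.1 and 17.2 CPM in liver), Itga2 (123 ± 2.33 CPM in lung and 1.16 ± 0.314 CPM in liver) and Itga6 (583 ± 36.2 CPM in lung and 141 ± 25.8 CPM in liver) were higher in lung (4.79, 6.71 and 2.05). Itga9, which binds tenascin and VEGF-C, stood at 33.7, 37.9 and 44.4 CPM in lung and 1099, 723 and 710.4 CPM in liver (-4.45, adjusted p = 4.73e-09). Itga8 stood at 14.6 ± 5.48 CPM in lung and 167 ± 59.2 CPM in liver (-3.52), and both were higher in liver. The shared beta chain gene Itgb1 did not pass at 908 ± 77.9 CPM in lung and 998 ± 74.4 CPM in liver, with a 95% interval of -0.43 to 0.16. Among 40 genes of the glycocalyx and heparan sulfate, 19 were higher in lung, 14 were higher in liver and 7 did not pass. When only the 31 with at least 5 CPM were tested, 13 were higher in lung and 14 in liver. Hs3st3b1, a heparan sulfate 3-O-sulfotransferase, stood at 2.11, 3.35 and 3.62 CPM in lung and 487, 291 and 340.2 CPM in liver (-6.95, adjusted p = 4.6e-09). Hpse, the heparanase that cuts those chains, stood at 4.67 ± 1.15 CPM in lung and 164 ± 26.2 CPM in liver (-5.13). The glypican genes divided, Gpc1 being higher in liver (1.45 ± 0.518 CPM in lung and 60.8 ± 8.15 CPM in liver) and Gpc3 in lung (30.7 ± 8.9 CPM in lung and 0.601 ± 0.257 CPM in liver).

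Coagulation genes were called in both directions in nearly equal number. Of 36 tested, 15 were higher in lung, 16 were higher in liver and 5 did not pass. Thbd, thrombomodulin, which turns thrombin to an activator of protein C, stood at 3520.4, 4251 and 4397 CPM in lung and 356, 373 and 341 CPM in liver (3.51, SE 0.25, adjusted p = 7.78e-08). Tfpi, the inhibitor of tissue factor, stood at 61, 64.5 and 60.3 CPM in lung and 456, 456 and 441 CPM in liver (-2.86, adjusted p = 7.36e-09). Pros1, protein S, stood at 158, 173 and 166 CPM in lung and 627, 746 and 763 CPM in liver (-2.11, adjusted p = 2.34e-08). Thbd was therefore higher in lung, and Tfpi, Pros1 and the thrombin receptor gene F2r (67.9 ± 22 CPM in lung and 992 ± 105 CPM in liver, log2 difference -3.87) were higher in liver, as was F8. Procr, the protein C receptor, did not pass at 8.45 ± 2.58 CPM in lung and 9.11 ± 3.3 CPM in liver. Among 34 complement genes, 6 were higher in lung, 19 were higher in liver and 9 did not pass. The regulators of complement Cd55 (17.1, 10.6 and 15.2 CPM in lung and 1273, 1013 and 1149.5 CPM in liver, log2 difference -6.32) and Cd59a (2.72 ± 0.67 CPM in lung and 329 ± 32.6 CPM in liver, log2 difference -6.92) were higher in liver, and so was the protease gene Masp1 (4.18 ± 2.49 CPM in lung and 306 ± 50.4 CPM in liver, log2 difference -6.20). Hepatocytes make many complement components, and the hepatocyte sum stands above.

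Vascular tone genes were more often higher in lung. Of 71 tested, 33 were higher in lung, 20 were higher in liver and 18 did not pass. Besides Ace and Ednrb, Calcrl, the receptor for adrenomedullin and CGRP, stood at 3403, 3329.8 and 3892 CPM in lung and 813, 728 and 777 CPM in liver, and its partner gene Ramp2 at 1199, 1632 and 1690.2 CPM in lung and 480.0, 557 and 577 CPM in liver (2.20 and 1.49, adjusted p = 9.71e-08 and 0.000121). The ligand gene Adm went the other way, at 9.96, 4.52 and 7.19 CPM in lung and 45.3, 49.5 and 58.7 CPM in liver (-2.82, adjusted p = 2.96e-07). Enpep, aminopeptidase A, which converts angiotensin II onwards, stood at 12.8, 15 and 11.6 CPM in lung and 685, 571 and 536 CPM in liver (-5.51, SE 0.34, adjusted p = 2.37e-08), higher in liver where Ace was higher in lung. Nos3, endothelial nitric oxide synthase, was higher in liver at 89.6, 69.8 and 89.4 CPM in lung and 164, 172 and 168 CPM in liver (-1.02, adjusted p = 0.000535), and 32.3% of its exonic bases lie opposite exons of another gene. Among 54 G protein-coupled receptor genes, 21 were higher in lung, 15 were higher in liver and 18 did not pass. The latrophilin gene Adgrl3, at 99.6, 231 and 178 CPM in lung and 0.184, 0.102 and 0.182 CPM in liver, was higher in lung (10.02, adjusted p = 3.37e-08). Lpar6, a lysophosphatidic acid receptor, was higher in liver at 25.7 ± 1.85 CPM in lung and 191 ± 27.7 CPM in liver (-2.89).

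VEGF signalling genes were called in both directions. Of 29 genes for VEGF, angiopoietin and apelin signalling, 8 were higher in lung, 9 were higher in liver and 12 did not pass, and the median log2 difference was -0.02. Of 14 ligand genes, 6 were higher in lung and 3 in liver, and of 8 receptor genes, 1 was higher in lung and 4 in liver. The ligand gene Vegfa stood at 1405, 986 and 1149 CPM in lung and 34.2, 33.6 and 29.2 CPM in liver (5.19, SE 0.54, adjusted p = 3.11e-06). The receptor gene Kdr, which encodes VEGFR2, stood at 1072, 1591 and 1381 CPM in lung and 5977, 5145 and 5220.2 CPM in liver (-2.01, SE 0.22, adjusted p = 4.38e-06). The co-receptor gene Nrp2 stood at 46.5, 45.4 and 43.1 CPM in lung and 1205, 942 and 895 CPM in liver (-4.49, adjusted p = 1.24e-09). Vegfa was higher in lung, and Kdr, Nrp2 and Flt4 were higher in liver, with no overlap in any of them. Tek, which encodes the angiopoietin receptor Tie2, did not pass at 1446, 1342 and 1533 CPM in lung and 1102, 1075 and 1055 CPM in liver, without overlap but with a 95% interval of -0.01 to 0.84. Alveolar epithelium is a known source of Vegfa, and the epithelial marker sum was higher in lung.

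Notch and arterial genes were more often higher in lung. Of 27 Notch genes, 13 were higher in lung, 3 were higher in liver and 11 did not pass, and of 22 arterial genes, 15 were higher in lung, 4 were higher in liver and 3 did not pass. Hey1, a Notch target, stood at 162, 185 and 263 CPM in lung and 4.85, 3.2 and 5.13 CPM in liver (5.53, SE 0.51, adjusted p = 1.07e-06). Efnb2, the arterial ephrin ligand, stood at 1294, 1094 and 1148 CPM in lung and 183, 173 and 186 CPM in liver (2.71, adjusted p = 8.2e-06). The receptor gene Notch4 stood at 849 ± 51.4 CPM in lung and 307 ± 37.6 CPM in liver (1.47), while Notch1 (616 ± 119.9 CPM in lung and 514 ± 51.7 CPM in liver) and the ligand gene Dll4 (282, 364 and 387 CPM in lung and 399, 316 and 347 CPM in liver) did not pass, with 95% intervals of -0.18 to 0.70 and -0.54 to 0.47. Ltbp4 was an arterial gene higher in liver, at 784 ± 50.4 CPM in lung and 3291 ± 316 CPM in liver (-2.07). Of 21 venous and large vessel genes, 7 were higher in lung, 9 were higher in liver and 5 did not pass. Among 15 lymphatic genes, 2 were higher in lung, 6 were higher in liver and 7 did not pass. Prox1, the factor that sets lymphatic identity, stood at 0.581, 0.693 and 0.613 CPM in lung and 6.67, 4.8 and 8.6 CPM in liver (-3.40, adjusted p = 0.000181), higher in liver. Pdpn stood at 4.07, 7.62 and 4.85 CPM in lung and 0.712, 0.272 and 0.638 CPM in liver (3.33, adjusted p = 0.00022), higher in lung, where alveolar type 1 epithelium also expresses it.

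Zone genes of the liver lobule were called in both directions, more of them higher in liver than in lung. Of 15 pericentral genes, 4 were higher in lung, 10 were higher in liver and 1 did not pass, and of 14 periportal genes, 5 were higher in lung, 7 were higher in liver and 2 did not pass. Summed CPM of the pericentral genes was higher in lung, at 8413 to 8759 in lung and 4335 to 4781 in liver. For the periportal genes it was higher in liver, at 3170 to 3355 in lung and 6299 to 7356 in liver. The zone genes named next are all from those higher in liver. Wnt2, at 1.02, 0.665 and 0.613 CPM in lung and 213, 290.0 and 286 CPM in liver, Wnt9b, at 1.21 ± 0.647 CPM in lung and 132 ± 7.5 CPM in liver, and Rspo3, at 1.38, 2.19 and 2.65 CPM in lung and 118, 72.5 and 98.2 CPM in liver, which sustain the metabolic programme of hepatocytes near the central vein, were higher in liver (-8.41, -6.76 and -5.54, adjusted p = 1.63e-08, 8.37e-06 and 2.31e-07). Adam23, at 8.44 ± 2.83 CPM in lung and 853 ± 88.9 CPM in liver, Ntn4, at 148 ± 11.8 CPM in lung and 625 ± 96.8 CPM in liver, and Msr1 were among the periportal genes higher in liver (-6.66, -2.08 and -9.49). Among 86 genes of the Wnt pathway and angiocrine factors, 44 were higher in lung, 16 were higher in liver and 26 did not pass. When only the 52 with at least 5 CPM were tested, 26 were higher in lung and 16 in liver. On the lung side Pdgfb, which recruits pericytes, stood at 386, 342 and 409 CPM in lung and 39.7, 36.5 and 42 CPM in liver (3.27, adjusted p = 2.54e-07). On the liver side Il1a, interleukin 1 alpha, stood at 6.23, 8.64 and 4.8 CPM in lung and 273, 111 and 137 CPM in liver (-4.73, adjusted p = 4.68e-07). Mmp14, a membrane-bound protease, was higher in liver at 56.5 ± 8.45 CPM in lung and 499 ± 37.8 CPM in liver (-3.14).

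Genes of BMP ligands, receptors and targets divided between the tissues. Of 60 BMP and TGF-beta genes, 26 were higher in lung, 17 were higher in liver and 17 did not pass. Acvrl1, which encodes the ALK1 receptor for BMP9 and BMP10, stood at 2671, 3207 and 3288 CPM in lung and 112, 108 and 113 CPM in liver (4.78, SE 0.16, adjusted p = 1.81e-10). Bmpr2, the type 2 receptor mutated in pulmonary arterial hypertension, stood at 1809, 2399 and 2369 CPM in lung and 534, 511 and 467 CPM in liver (2.12, SE 0.18, adjusted p = 4.68e-07). The co-receptor endoglin, Eng, went the other way at 3080.3, 3073 and 3139 CPM in lung and 5818, 5401 and 6342 CPM in liver (-0.92, SE 0.23, adjusted p = 0.00461). The 3 genes, whose mutation in people causes hereditary telangiectasia or pulmonary hypertension, therefore did not share a direction. The inhibitor of differentiation genes, which BMP signals induce, also divided, Id1 being higher in lung (344 ± 60.7 CPM in lung and 93.8 ± 10.4 CPM in liver, log2 difference 1.87) and Id3 (297 ± 73.4 CPM in lung and 747 ± 57.1 CPM in liver, log2 difference -1.33) and Id4 (5.96 ± 0.865 CPM in lung and 92.4 ± 10.4 CPM in liver, log2 difference -3.95) in liver. Smad4, the shared effector gene, did not pass at 106 ± 8.39 CPM in lung and 102 ± 0.678 CPM in liver, with a 95% interval of -0.17 to 0.28.

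Guidance genes were often tissue-biased. Of 66 tested, 34 were higher in lung, 19 were higher in liver and 13 did not pass. When only the 45 with at least 5 CPM were tested, the split was near even, at 21 higher in lung and 19 higher in liver. Ephrin and Eph genes were higher in lung in 14 of 17, with 1 higher in liver. Plexin genes divided, Plxnd1, the receptor of semaphorin 3E, standing at 517, 399 and 429.6 CPM in lung and 3439.5, 2635 and 2632 CPM in liver (-2.69, adjusted p = 2.75e-07). Plxna1 stood at 364, 611 and 648 CPM in lung and 54.9, 60.0 and 56.5 CPM in liver (3.24, adjusted p = 5.3e-08). Ntn1, netrin 1, was higher in lung at 459 ± 25.2 CPM in lung and 35.6 ± 16.5 CPM in liver (3.69). Robo1 was higher in liver at 1.43 ± 0.535 CPM in lung and 77 ± 14.6 CPM in liver (-5.75).

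Antigen presentation genes were described by class, with no test between the classes. Of 29 class I genes, 7 were higher in lung, 6 were higher in liver and 16 did not pass, a share of 44.8% beside 47% over all genes. When only genes with at least 5 CPM were tested, 8 of 27 were higher in lung and 4 in liver, beside 3257 and 3210 of 11518 genes. Without lung replicate 2, lung replicate 3 or liver replicate 1, and with upper-quartile scaling, 3 were higher in liver. H2-K1 stood at 3447, 2460.5 and 2912 CPM in lung and 2974, 2813 and 3074 CPM in liver and H2-D1 at 3959.9, 3215 and 3627 CPM in lung and 3745, 3652 and 3983 CPM in liver. Neither passed, with 95% intervals of -0.34 to 0.33 and -0.40 to 0.25. Class I genes are near-identical in sequence, so reads may be split between them. Of 19 class II genes, 8 were higher in lung, 3 were higher in liver and 8 did not pass. H2-Ab1 stood at 489, 203 and 232 CPM in lung and 30.2, 14.9 and 45.4 CPM in liver (3.35, SE 0.49, adjusted p = 7.01e-05). Ciita, the activator of class II genes, stood at 54.9, 37.7 and 37.9 CPM in lung and 1.79, 1.97 and 1.91 CPM in liver (4.52, SE 0.46, adjusted p = 2.79e-06). Lung replicate 1 held the highest values of both. Professional antigen-presenting cells also express class II, and their part in these differences was not tested. Ptprc did not pass at 10.1, 4.85 and 6.61 CPM in lung and 7.72, 7.86 and 13.6 CPM in liver. Over the lung libraries, Ptprc and the pan-leukocyte and lymphocyte sum (60.6, 37.2 and 43.6 CPM) were also highest in replicate 1, while the dendritic cell sum was lowest there. The dendritic cell marker sum was 255, 269 and 313 CPM in the lung and 362, 371 and 341 CPM in the liver. Of its 8 tested genes, 3 averaged at least 5 CPM in either tissue, 2 of them higher in lung and 1 in liver. How much of that sum came from dendritic cells was not tested.

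Immune genes outside antigen presentation were mixed. Of 44 innate sensing genes, 6 were higher in lung, 18 were higher in liver and 20 did not pass. Of 55 interferon response genes, 14 were higher in lung, 18 were higher in liver and 23 did not pass. Of 42 chemokine genes, 11 were higher in lung, 12 were higher in liver and 19 did not pass. Tlr2, a sensor of bacterial lipoproteins, stood at 14.7, 9.61 and 9.95 CPM in lung and 74.1, 56.6 and 58.7 CPM in liver (-2.47, adjusted p = 5.43e-07). Il6st, the gp130 chain of the interleukin 6 receptor, stood at 812, 843 and 790.1 CPM in lung and 2939, 3752 and 3556 CPM in liver (-2.07, adjusted p = 2.02e-06). Both were higher in liver. Among chemokines, Cxcl12, the ligand of CXCR4, stood at 995, 712 and 991 CPM in lung and 13.7, 6.6 and 17.1 CPM in liver (6.17, SE 0.64, adjusted p = 3.3e-06). Cx3cl1, fractalkine, stood at 179, 270.4 and 239 CPM in lung and 1.16, 0.374 and 0.729 CPM in liver (8.21, adjusted p = 6.32e-06), while Cxcl16 was higher in liver at 28.4, 33.8 and 32.6 CPM in lung and 250.4, 233 and 239.8 CPM in liver (-2.93, adjusted p = 1.01e-08). Ly6c1, a surface marker of many capillaries, stood at 639, 747 and 674 CPM in lung and 4.08, 1.84 and 2.34 CPM in liver (7.95, adjusted p = 8.8e-06). Ly6a stood at 1287 ± 87.4 CPM in lung and 149 ± 10.3 CPM in liver (3.11). Of 29 leukocyte adhesion genes, 11 were higher in lung, 10 were higher in liver and 8 did not pass. Podxl, podocalyxin, was higher in lung (1895 ± 180.5 CPM in lung and 711 ± 47 CPM in liver, log2 difference 1.41), and Sele, E-selectin, did not pass (18.5 ± 5.45 CPM in lung and 22 ± 17.6 CPM in liver).

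Lipid and transporter genes divided about evenly. Of 45 lipid genes, 16 were higher in lung, 17 were higher in liver and 12 did not pass, and of 66 solute transporter genes, 25 were higher in lung, 22 were higher in liver and 19 did not pass. Pltp, which transfers phospholipids between lipoproteins, stood at 1484, 1311 and 1482 CPM in lung and 17.4, 19.9 and 30.8 CPM in liver (5.97, SE 0.32, adjusted p = 7.14e-09). Apoe stood at 93.5, 81.8 and 111 CPM in lung and 5062, 4512 and 6494 CPM in liver (-5.81, SE 0.50, adjusted p = 5.22e-07) and is also a product of hepatocytes and macrophages. Cyp4b1, a fatty acid hydroxylase, did not pass at 1379.6 ± 293 CPM in lung and 1430.2 ± 220.3 CPM in liver. Slc29a1, an adenosine transporter, stood at 119, 97.7 and 102 CPM in lung and 874, 783 and 788 CPM in liver (-2.94, adjusted p = 2.7e-07), higher in liver, as did the organellar sodium and proton exchanger Slc9a9 at 0.876 ± 0.619 CPM in lung and 268 ± 42.9 CPM in liver (-8.27).

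Hypoxia genes did not move as a block. Of 34 tested, 10 were higher in lung, 12 were higher in liver and 12 did not pass. Epas1, which encodes HIF2 alpha, stood at 9204, 12294 and 11490 CPM in lung and 1719, 1466 and 1671 CPM in liver (2.76, SE 0.23, adjusted p = 3.94e-07), higher in lung with Vegfa. Adm, Ndrg1 (43.1 ± 11 CPM in lung and 320.4 ± 25.1 CPM in liver, log2 difference -2.89) and the lactate dehydrogenase gene Ldha (133 ± 6.19 CPM in lung and 298 ± 33.3 CPM in liver, log2 difference -1.16) were higher in liver. Cell cycle genes were higher in liver in 23 of 33, with 2 higher in lung. The count higher in liver was 14 without lung replicate 2 and 11 without liver replicate 2. Cdk1, the mitotic kinase, stood at 2.98, 0.416 and 2.96 CPM in lung and 14.6, 31.4 and 17.1 CPM in liver (-3.31, adjusted p = 0.000786). Mcm3, of the replicative helicase, stood at 39 ± 0.617 CPM in lung and 116 ± 4.82 CPM in liver (-1.57). The 2 higher in lung were Cdk6 (63.1 ± 15.9 CPM in lung and 11.5 ± 1.5 CPM in liver) and Cdkn1a. Cdkn1a, the p21 inhibitor, stood at 824, 709 and 555 CPM in lung and 80.9, 54.8 and 42.2 CPM in liver (3.55, adjusted p = 1.76e-07).

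Immediate early genes, which respond within minutes to handling as well as to flow, were higher in lung in 18 of 38 and in liver in 1, and in 29 in a fit of the 6 control libraries alone. Their summed CPM spanned 24680 to 30551 in lung and 4947 to 12978 in liver. Egr1 stood at 1828, 2026 and 1657 CPM in lung and 301, 80.7 and 254 CPM in liver (3.11, SE 0.92, adjusted p = 0.0128) and was chosen after its values were seen. Without liver replicate 2 its adjusted p was 0.0507. Fos stood at 1285, 1588 and 1607 CPM in lung and 882, 275 and 919 CPM in liver and Jun at 2516, 3139.8 and 3031 CPM in lung and 1385, 495 and 1256 CPM in liver. Their groups did not overlap, but neither passed, with 95% intervals of -0.35 to 2.57 and 0.22 to 2.72. Liver replicate 2 was the lowest library for all 3 genes. Nr4a1 stood at 1246, 955 and 504 CPM in lung and 124, 27.7 and 67.4 CPM in liver (3.63, adjusted p = 3.64e-05). Btg2 stood at 969 ± 138 CPM in lung and 145 ± 53.3 CPM in liver (2.74), and both were higher in lung. Klf2, Klf4, Id1, Vegfa and Cdkn1a can also be induced in this way, and the part of tissue handling in their differences was not tested.

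**Figure D5:**
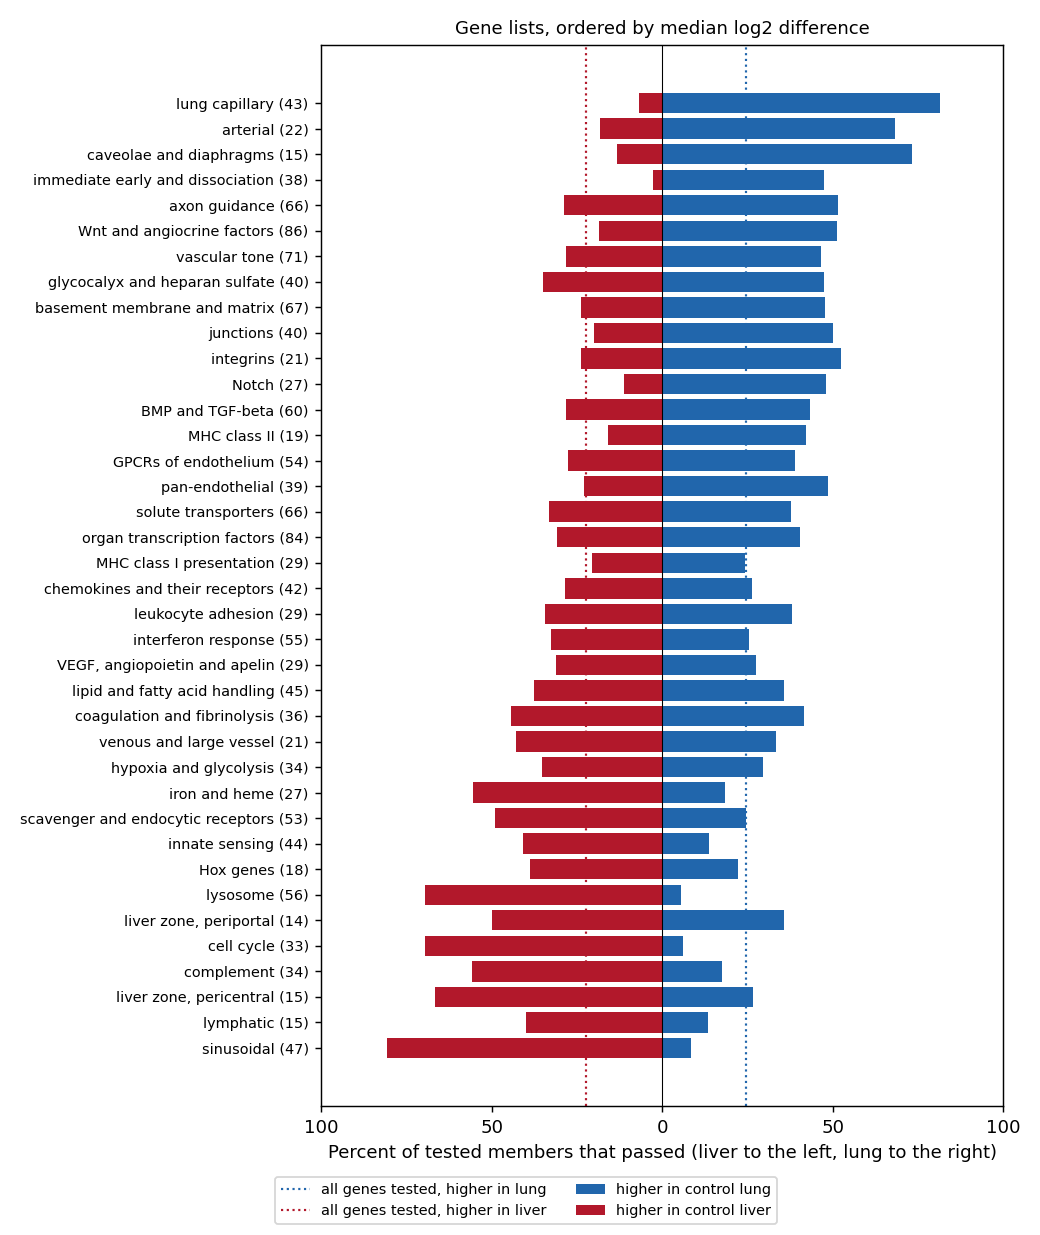
Percent of tested members of each gene list (number tested in brackets) that were higher in control lung (bars to the right) or control liver (bars to the left), ordered by the median log2 difference; dotted lines mark 24.6% and 22.4%, the shares over all genes tested. Lung capillary, arterial and caveolar genes lie at the lung end and sinusoidal, lymphatic and pericentral genes at the liver end.

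The same tissue contrast was read in the knockout-labelled libraries, which share no library with the controls. There 7968 of the 19646 genes passed (40.6%). Of the genes higher in control lung, 3150 (65.2%) were also higher in knockout-labelled lung and 56 were higher in knockout-labelled liver. Of the genes higher in control liver, 2850 (64.7%) passed in the same direction and 67 in the other. Among differences of at least 4-fold, 72.1% of those higher in lung and 79.3% of those higher in liver passed in the same direction. The test of the difference between the 2 contrasts, which uses the control libraries again, passed for 1219 genes (6.2%), for 807 without lung replicate 3 and for 2072 by DESeq2. These directions rest on libraries whose Fli1 counts over the whole gene, given above, were not lower than in controls, though their label names that gene.

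Heart controls, 2 libraries, were set beside both tissues as a further level. Of the 2677 genes at least 4-fold higher in lung, the heart mean was nearer to lung for 1366 and nearer to liver for 1311 on the scale of log2(CPM + 0.1). Of the 1521 genes at least 4-fold higher in liver, it was nearer to lung for 1145 and nearer to liver for 376. Cav1, Ehd2 and Hey1 stood in heart at 2447 and 2738, 1342 and 1569 and 127 and 136 CPM, nearer to lung, and Stab2, Oit3 and F8 at 0.145 and 0.416, 0.174 and 0.388 and 2.0 and 4.02 CPM, also nearer to lung. Tmem100, Sema3c and Scn7a stood at 9.23 and 14.1, 9.2 and 6.1 and 16.3 and 23 CPM, nearer to liver.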

How the data were processed

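RNA-seq of sorted endothelial cells gave 16 libraries in 6 groups of tissue and genotype. The deposited values are whole-number read counts per gene, not normalized. The submitters' processing notes name STAR 2.7.6a, FastQC 0.11.5 and the mouse build GRCm38. Libraries were made with an unstranded or a stranded TruSeq kit, per the labels' protocols, which do not say which library had which. They also do not say with which program, strand option and gene models reads were assigned to genes.

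Symbols and positions came from GENCODE M21 (GRCm38), which matched 52489 of 52636 identifiers (99.7%). Genes were kept by edgeR's filterByExpr (minimum count 10, minimum total 15). Counts of all 16 libraries were scaled by TMM and fitted with 1 mean per group in edgeR 4.0.16 (R 4.3.3) by the quasi-likelihood test, with Benjamini-Hochberg adjustment over 19646 genes and a threshold of 0.05. Intervals at 95% used the fit's degrees of freedom. CPM were computed with TMM factors. A group without counts was given a floor of 3 counts over its libraries, and bounds and ratios with 1 count cover counting error only. Replicate pairs differed beyond sampling noise (chi-square over degrees of freedom 20.8 to 55.6), so none was counted as a repeat. DESeq2 1.42.0 was an alternative, and the scripts were tested on simulated counts. Total counts were 30226340 to 41449054 over the 16 libraries.

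Other settings for scaling, filter, test, libraries in the fit, block and sex were also run, with their effect given in the closing section. The members, gene lists and tests were chosen with earlier results of these data known. Genes named were all pan-endothelial, capillary, sinusoidal, factor, Hox, zone and lymphatic genes available, the 12 largest differences each way, and from other lists up to 8 that passed with the smallest adjusted p at 5 CPM or more and up to 3 that did not pass, plus markers of other cells for the check of the sort. Some genes that this rule names are not reported here. Lists are described by counts and medians, with no set test.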

Additional observations from a re-analysis of the deposited data

Results flagged for a closer look

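For 53 of the 224 genes named, the lung minus liver difference itself differed between knockout-labelled and control libraries (adjusted p = 3.14e-07 to 0.0486, edgeR interaction term over all 19646 genes). The value given is the knockout-labelled difference minus the control difference on the log2 scale. In 48 of the 53 the knockout-labelled difference was smaller in size or had the other sign, and the cause was not tested. Counts of Fli1 over the whole gene were not lower in the knockout-labelled libraries than in controls of the same tissue, and counts by exon were not examined.

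The sign of the estimate changed for 7 genes. Apelin (Apln) went from 4.16 to -1.35 (by -5.51), the endothelin receptor gene Ednrb from 4.06 to -0.29 (by -4.34) and Plvap from 1.98 to -0.27 (by -2.25). Ltbp4 went from -2.07 to 0.14 (by 2.21) and Erg, a gene that the knockout label names, from -0.42 to 0.36 (by 0.78). The class I genes H2-K1 and H2-D1, which did not pass between the control tissues, went from -0.0066 to 1.19 (by 1.19) and from -0.08 to 0.94 (by 1.01).

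The difference was larger in knockout-labelled libraries for 5 genes, by 2.62 for Ly6a, 1.39 for Slco2a1, 1.33 for Fth1, -1.51 for Enpep and -2.69 for Abcc9, a marker of pericytes. Among genes higher in lung, it was smaller in knockout-labelled libraries, with the change in log2 difference in brackets, for Ace (-3.71), Acvrl1 (-0.80), Aff3 (-3.19), Aplnr (-4.66), Cdk6 (-1.81), Cdkn1a (-1.32), Ehd2 (-2.57), Foxf1 (-2.36), Itga2 (-5.31), Itga3 (-2.25), Nr4a1 (-2.45), Plxna1 (-1.24), S1pr1 (-1.93) and Sox11 (-3.15). Among genes higher in liver, it was smaller for Adam23 (4.86), Ctsl (1.55), Cxcl16 (1.58), Dab2 (1.03), Dnase1l3 (6.27), Fcgrt (1.5), Gpc1 (2.43), Hs3st3b1 (1.65), Il6st (1.40), Itga9 (1.34), Lama4 (1.37), Lgmn (1.68) and Maf (1.65). The same held for Man2b1 (1.53), Mmrn2 (1.59), Nrp2 (1.58), Oit3 (3.33), Pros1 (1.22), Selenop (2.56), Slc29a1 (1.44), Slc40a1 (2.60), Slc9a9 (2.43), Stab2 (2.96), Tfpi (1.21), Tlr2 (1.94), Tmem132e (7.13) and Wnt9b (3.66).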

How the results depend on the processing

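Over 15 alternatives, 3257 to 5457 genes were higher in control lung and 3210 to 4834 in control liver, against 4831 and 4407, each within 1.5 times the reported count. The lowest of both came from testing only the 11518 genes with at least 5 CPM. Leaving out 1 of the 6 libraries gave 4223 to 4489 and 3590 to 3937. Upper-quartile scaling moved the median log2 difference over all genes from 0.05 to 0.16 and the share of calls higher in lung from 52.3% to 59.1%. No named gene changed sign with a call. Of 224 named genes, 7 lost their call under at least 1 alternative (Gpihbp1, Erg, Egr1, Hoxa3, Hoxb3, Lmo2 and Tox) and 3 gained one (Jun, Tek and Fos), and the cause was not tested. The tissue difference differed between knockout-labelled and control libraries in 1219 genes, in 2072 by DESeq2 and in 807 to 934 with 1 control library left out. A replicate block, with genotype and number as the block in the 12 lung and liver libraries, gave 4302 genes higher in lung, 4533 higher in liver and 8282 of the 9238 reported calls. Same-numbered lung and liver libraries correlated at 0.0405, 0.0197 and 0.0919 in their deviations from the group means. Differently numbered ones correlated at 0.0281 for lung replicate 2 with liver replicate 1, and otherwise at -0.0782 to -0.0105. The labels do not say whether a number marks an animal, so the main fit used no pairs, and shared animals were not tested for. With 3 libraries a group, differences under the intervals given cannot be resolved, and genes without counts in a group have bounds only.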
